A study of Mus musculus with 32 samples.

Results

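The difference between fibroblasts with a nuclear and with an unmodified ATP-citrate lyase (ACLY) was compared between low and high glucose. The quantity was the log2 fold change of Nuc over WT cells in 1 mM glucose minus the same fold change in 10 mM glucose, called the difference between media here. Every gene listed in the tables of both media was taken, which gave 11931 of the 12913 genes listed in either table. All groups were mouse embryonic fibroblasts whose own Acly gene had been knocked out. Nuc cells carried mCherry-tagged human ACLY to which nuclear import sequences had been added, and WT cells carried the tagged enzyme without them. The media held 1 mM glucose or 10 mM glucose and were given for 24 h, with 4 libraries for each construct and medium. Cells with ACLY bearing a nuclear export sequence (Cyto) and cells with mCherry alone (KO) entered the fits to estimate the spread and are described only for Acly and Hspa5. Medium and sequencing batch coincided: 1 mM glucose was batch 1 and 10 mM glucose batch 2 in the labels. Levels were therefore set against each other only between constructs of 1 medium, and a batch effect that acted unequally on the constructs cannot be told apart from a glucose effect. Nothing in the labels says that the libraries of a group were separate cultures or separately made lines, so p-values measure only the spread between these samples, which may be technical.

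ACLY cleaves citrate to acetyl-CoA and oxaloacetate outside mitochondria. It is found in the cytosol, where acetyl-CoA feeds fatty acid and sterol synthesis, and in the nucleus, where acetyl-CoA is used to acetylate histones. The endoplasmic reticulum (ER) folds and glycosylates secreted and membrane proteins, collagens of fibroblasts among them. Unfolded protein in the ER activates the sensors PERK, IRE1 and ATF6, and this unfolded protein response raises chaperones and the machinery that removes misfolded protein. Glucose withdrawal is a classical trigger of that response, because N-linked glycans are built from glucose-derived sugars.

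The Acly transcript level checked the KO label, but not the labels Nuc, Cyto and WT against each other or those of the media. In 1 mM glucose it was 8.97 ± 0.08 log2 CPM (counts scaled to library size, on a log2 scale) in Nuc, 10.50 ± 0.07 in Cyto, 10.57 ± 0.10 in WT and 5.35 ± 0.10 in KO cells, and in 10 mM glucose 9.12 ± 0.12 in Nuc, 9.74 ± 0.13 in Cyto, 10.21 ± 0.06 in WT and 5.87 ± 0.21 in KO cells (SD, n = 4 each, and n = 3 for Cyto in 10 mM glucose). Reads of the human ACLY construct may be counted under mouse Acly and cannot be separated here, so the value is not a measure of either alone. It was lower in Nuc than in WT cells in both media, by 1.60 in 1 mM and by 1.09 in 10 mM glucose on the log2 scale, and the difference between media was -0.50 ± 0.11 (SE, adjusted p = 0.00407). The part that this unequal Acly level has in the results below was not tested. WT library 2 in 1 mM glucose stood apart, with a root mean square distance of 0.536 log2 units from the mean of the other libraries of its group. This distance was 0.269 to 0.329 for the other Nuc and WT libraries of that medium. In 10 mM glucose, it was largest for Nuc library 4 (0.491) and WT library 4 (0.418), against 0.332 to 0.374 for the others. All 11 fibroblast markers were listed in both media, whereas the immune markers Ptprc, Adgre1, Cd3e and Cd79a and the epithelial markers Epcam and Cdh1 were not. Of 7 epithelial markers Krt19 alone was listed. Its Nuc and WT levels lay at 21.1 to 41.4 CPM in 1 mM and 27.7 to 50.4 CPM in 10 mM glucose. Neural markers listed summed to 11.7 to 26.3 CPM (2 of 7) in 1 mM and 30.3 to 56.5 CPM (3 of 7) in 10 mM glucose. Endothelial and muscle markers listed summed to at most 6.42 and 11.4 CPM in 1 mM glucose, and 10.9 and 14.5 CPM in 10 mM glucose. The 3 of 6 adipocyte markers listed summed to between 491 and 541 CPM in Nuc and between 379 and 417 CPM in WT cells in 1 mM glucose, and to between 429 and 486 CPM in Nuc and between 293 and 320 CPM in WT cells in 10 mM glucose. The 3 of 7 immune markers listed summed to between 20.6 and 25.2 CPM in Nuc and between 8.33 and 13.6 CPM in WT cells in 1 mM glucose, and to between 28.9 and 35.0 CPM in Nuc and between 18.2 and 19.7 CPM in WT cells in 10 mM glucose. The part of these markers in the results below was not tested. Mitochondrially encoded transcripts made up 1.51% ± 0.17 in Nuc and 1.25% ± 0.05 in WT cells in 1 mM glucose (exact permutation test, two-sided, p = 0.0571), and 4.16% ± 0.05 in Nuc and 3.51% ± 0.03 in WT cells in 10 mM glucose (p = 0.0286, the smallest this exact test can give).

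The fold changes of Nuc over WT in low and high glucose were correlated across genes, and a subset of genes differed. A gene was called when its Benjamini-Hochberg adjusted p was under 0.05 in limma. Of 11931 genes, 1225 (10.3%) were called for the difference between media. The fold change of Nuc over WT was higher in 1 mM than in 10 mM glucose for 555 genes (4.65%) and lower for 670 genes (5.62%), and 180 of the 1225 differed by at least 2-fold. Among the 1225, 481 passed the test of Nuc against WT only in 1 mM glucose, 356 only in 10 mM glucose, 251 in both media in the same direction, 43 in neither medium, and 94 (0.788% of all genes) in both media in opposite directions. Of those 94, 39 were higher in Nuc than in WT cells in 1 mM glucose and lower in 10 mM glucose, and 55 were the reverse. Against these stood 2157 genes called in the same direction in both media, of which 1906 were not called for the difference. In all, 4669 of the shared genes were called in 1 mM glucose and 3586 in 10 mM glucose. A gene not called for the difference is not thereby shown to be equal in both media, and 2761 genes had an unadjusted p under 0.05 in limma. Across genes the fold changes of both media had a Pearson correlation of 0.75 and a Spearman correlation of 0.60, given as a description since genes of the same libraries are not independent. The median gene had an absolute difference of 0.19 and a standard error of 0.17. As background, limma called 39.1% of the genes of the 1 mM table for Nuc against WT (19.7% higher and 19.4% lower) and 28.8% of those of the 10 mM table (15.0% higher and 13.8% lower). The Nuc and WT libraries did not overlap for 35.6% of the shared genes in 1 mM glucose and for 31.1% in 10 mM glucose.

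**Figure D1:**
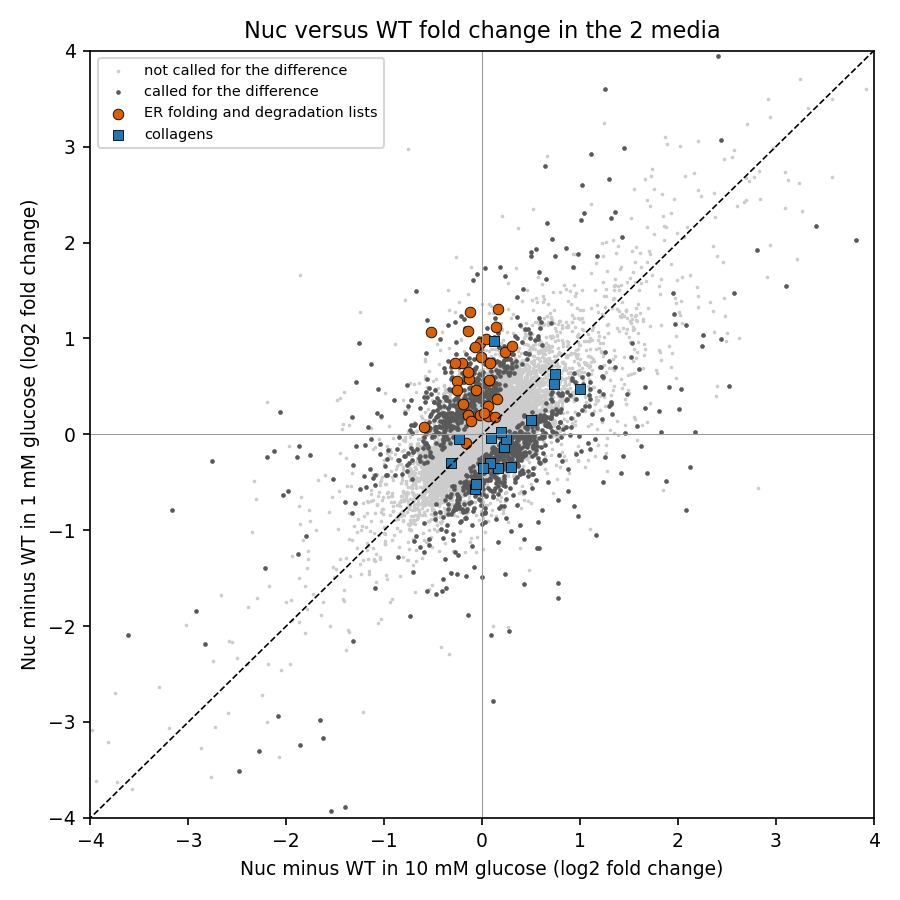
Each point is a gene in both tables, with the log2 fold change of Nuc over WT in 10 mM glucose across and that in 1 mM glucose up; the dashed line marks equal values and 49 genes lie outside the axes. Dark points are the 1225 genes called for the difference, and the genes of ER folding and degradation (circles) lie above the line while most collagens (squares) lie below it.

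Genes of protein folding in the ER had the highest share of calls among 38 gene lists. In 1 mM glucose 16 of 19 measured ER chaperones and folding enzymes were higher in Nuc than in WT cells and none was lower, against 19.7% higher among all genes of that table. In 10 mM glucose 3 were higher and 5 lower, against 15.0% and 13.8% of all genes. For the difference between media 14 of 19 were called higher and 0 lower, against 4.65% higher among all genes, and the median member differed by 0.81, against 0.001 for all genes. The difference was above 0 for all 19, and it ranged between 0.13 for Fkbp2, a prolyl isomerase that was not called, and 1.58 for Sdf2l1, a cochaperone of the ER. Without WT library 2 of 1 mM glucose 16 of 19 were called higher.

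A promoter sequence known from this pathway in mouse and human, the ER stress element, joins CCAAT, bound by NF-Y, to CCACG, bound by ATF6. CCAAT and CCACG spaced by 9 bases of any kind were looked for on both strands of RefSeq promoter windows (GRCm38.p6) that run from 250 bases before to 50 bases after a gene's start. That build is not the GRCm39 named in the submitters' processing notes, so genes were matched by symbol, for 9205 of 11931 genes. The element was in a window of 16 of these genes (0.174%). It was in 9 of 425 genes called higher for the difference (2.12%), in 0 of 505 called lower and in 7 of 8275 not called (0.0846%). Outside the lists of ER folding and ER-associated degradation, 2 of 406 genes called higher held it (0.493%). Of the ER chaperone list, 7 of 17 matched genes held it, and of the degradation list 1 of 10. The stretch CCACG alone was in a window of 52.8% of all matched genes. A match describes letters, not a bound site. The elements of members of both ER lists are shown because they are a sequence feature shared by these 8 genes; they are written from CCAAT to CCACG, with both in capitals.
Creld2: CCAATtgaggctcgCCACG
Hsp90b1, farther from the start: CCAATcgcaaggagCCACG
Hsp90b1, nearer to the start: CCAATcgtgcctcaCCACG
Dnajc3: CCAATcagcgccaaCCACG
Hspa5: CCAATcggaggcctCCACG
Calr: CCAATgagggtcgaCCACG
Pdia6: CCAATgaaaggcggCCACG
Canx: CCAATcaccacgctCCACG
Syvn1: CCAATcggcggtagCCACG
They start between -212 and -44 bases from the gene's start. Of the genes printed, only Canx was not called for the difference. The whole windows of 3 called genes and of Canx are given to show where the element lies, in the direction of the gene and with the element in capitals; in Creld2 and at the element of Hsp90b1 nearer to the start it reads on the opposite strand.
Creld2, chr15:88819396-88819695, GRCm38.p6, plus strand: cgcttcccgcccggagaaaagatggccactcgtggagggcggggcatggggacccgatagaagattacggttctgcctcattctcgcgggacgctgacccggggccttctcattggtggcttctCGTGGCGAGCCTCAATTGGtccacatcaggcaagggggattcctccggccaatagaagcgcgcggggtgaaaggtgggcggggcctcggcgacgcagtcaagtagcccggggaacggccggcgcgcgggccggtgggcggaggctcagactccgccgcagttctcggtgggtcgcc
Hsp90b1, chr10:86705395-86705694, GRCm38.p6, minus strand: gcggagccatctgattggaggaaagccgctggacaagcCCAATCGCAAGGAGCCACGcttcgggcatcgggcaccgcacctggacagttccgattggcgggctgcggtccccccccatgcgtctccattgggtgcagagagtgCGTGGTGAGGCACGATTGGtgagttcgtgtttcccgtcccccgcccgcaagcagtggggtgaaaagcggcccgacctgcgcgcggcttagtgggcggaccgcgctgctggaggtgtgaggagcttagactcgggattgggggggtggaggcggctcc
Syvn1, chr19:6046326-6046625, GRCm38.p6, plus strand: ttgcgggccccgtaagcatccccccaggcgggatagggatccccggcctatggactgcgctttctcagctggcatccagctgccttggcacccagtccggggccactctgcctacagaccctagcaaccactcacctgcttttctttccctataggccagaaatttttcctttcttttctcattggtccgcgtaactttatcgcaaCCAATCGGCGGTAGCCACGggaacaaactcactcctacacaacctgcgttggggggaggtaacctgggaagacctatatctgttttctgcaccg
Canx, chr11:50325624-50325923, GRCm38.p6, minus strand: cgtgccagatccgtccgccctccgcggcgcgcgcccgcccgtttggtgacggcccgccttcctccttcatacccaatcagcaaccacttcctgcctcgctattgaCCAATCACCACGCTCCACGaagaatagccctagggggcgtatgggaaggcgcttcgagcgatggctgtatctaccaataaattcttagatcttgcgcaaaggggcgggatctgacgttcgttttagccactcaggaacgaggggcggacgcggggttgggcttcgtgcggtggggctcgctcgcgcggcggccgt
Alg12 and Zfp57 were the other genes called higher that held the element.

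Hspa5 encodes BiP, the main chaperone of the ER lumen. It measured 12.98, 12.63, 12.78 and 12.84 log2 CPM in Nuc and 11.98, 12.52, 12.02 and 11.75 in WT cells in 1 mM glucose. The 10 mM libraries gave 9.58, 9.50, 9.59 and 9.79 log2 CPM in Nuc and 9.78, 9.76, 9.83 and 9.90 in WT cells. All Nuc libraries lay above all WT libraries in 1 mM glucose, with WT library 2 the nearest, whereas the groups overlapped in 10 mM glucose with Nuc mostly below. The difference between media was 0.94 ± 0.16 (SE, adjusted p = 0.000176). The mean in 1 mM glucose was 12.81 in Nuc, 13.10 in Cyto, 12.07 in WT and 9.76 in KO cells, so Nuc was not the construct with the highest level.

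Hyou1, a large chaperone that acts as exchange factor for BiP, had the smallest adjusted p of the list. In 1 mM glucose its levels were 10.48, 10.14, 10.19 and 10.14 log2 CPM in Nuc and 9.03, 9.02, 8.98 and 8.67 in WT cells. In 10 mM glucose Nuc libraries gave 6.84, 6.85, 6.82 and 6.72 log2 CPM and WT libraries 6.71, 6.58, 6.59 and 6.70. Nuc was above WT without overlap in both media, by 1.31 in 1 mM and by 0.16 in 10 mM glucose on the log2 scale, and the difference was 1.15 ± 0.11 (adjusted p = 4.298e-08).

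Creld2, a secreted ER stress protein with disulfide isomerase activity, showed the same form. Its 1 mM levels were 9.44, 9.12, 9.16 and 9.16 log2 CPM in Nuc and 7.82, 8.72, 7.75 and 7.50 in WT cells, without overlap. Its 10 mM levels, 5.62, 5.58, 5.72 and 5.95 in Nuc and 5.81, 5.75, 5.78 and 6.01 in WT cells, overlapped. The difference of 1.40 ± 0.22 (adjusted p = 8.126e-05) was the highest among called genes at or above the median level, and it was 1.65 without WT library 2 of 1 mM glucose. Sdf2l1 changed sides: Nuc averaged 8.70 ± 0.10 and WT 7.64 ± 0.49 log2 CPM in 1 mM glucose, and Nuc averaged 4.22 ± 0.15 and WT 4.74 ± 0.11 in 10 mM glucose (SD, n = 4 each). Calreticulin (Calr), a lectin chaperone of glycoproteins, did so too, with log2 fold changes of 0.55 in 1 mM and -0.26 in 10 mM glucose, each called. Dnajb9 and Dnajc3, cochaperones of BiP, had differences of 1.22 ± 0.13 and 0.98 ± 0.11, and Hsp90b1, the HSP90 chaperone of the ER, one of 0.98 ± 0.15. Among the 5 members not called were Canx, the membrane-bound partner of calreticulin (0.22 ± 0.10), and P4hb, a disulfide isomerase that also serves collagen prolyl hydroxylase (0.23 ± 0.09).

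**Figure D2:**
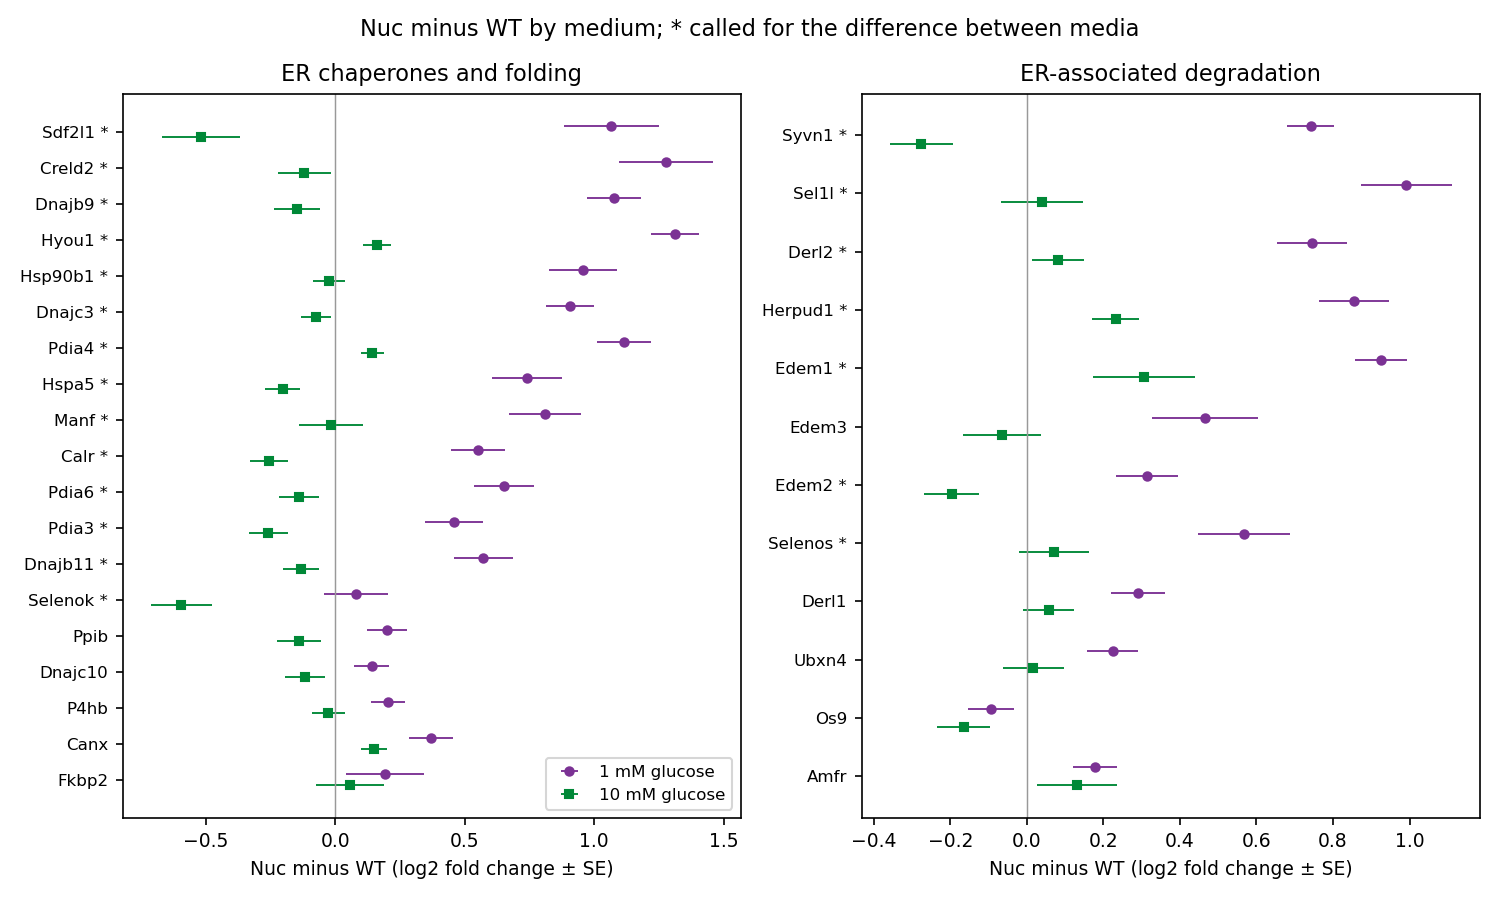
Log2 fold changes of Nuc over WT with their standard errors are drawn for each measured gene of ER folding (left) and ER-associated degradation (right), in 1 mM glucose (circles) and in 10 mM glucose (squares); an asterisk marks a gene called for the difference. The median gene of ER folding lies at 0.65 in 1 mM and at -0.12 in 10 mM glucose.

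The machinery that returns misfolded protein to the cytosol for degradation differed in the same direction. Of 12 measured genes of ER-associated degradation 7 were called higher for the difference and 0 lower, against 4.65% and 5.62% of all genes. Their median was 0.52. Syvn1, the ubiquitin ligase at the core of this pathway, measured 7.80, 7.85, 7.88 and 7.89 log2 CPM in Nuc and 6.93, 7.13, 7.23 and 7.17 in WT cells in 1 mM glucose. With 10 mM glucose it measured 5.70, 5.70, 5.72 and 5.74 in Nuc and 5.92, 5.94, 6.02 and 6.08 in WT cells. The order of the groups was thus opposite in the media, with no overlap in either, and the difference was 1.02 ± 0.10 (adjusted p = 4.298e-08). Its adaptor Sel1l differed by 0.95 ± 0.17, Derl2, a channel component, by 0.66 ± 0.11, and Edem1, which trims mannose from misfolded glycoproteins, by 0.62 ± 0.16.

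Fewer calls fell on sensors and stress factors of the unfolded protein response. In 1 mM glucose 9 of 13 were higher and 1 lower in Nuc than in WT cells, against 19.7% and 19.4% of all genes. In 10 mM glucose 4 were higher and 1 lower, against 15.0% and 13.8%. For the difference 2 were called higher and 0 lower, against 4.65% and 5.62% of all genes, and 12 of 13 differences were above 0. The count for the difference was 4 higher without WT library 2 of 1 mM glucose and 5 with library weights. Eif2ak3, which encodes the sensor PERK, had a log2 fold change of 0.44 in 1 mM and of -0.03 in 10 mM glucose. Ddit3, the stress transcription factor CHOP, measured 9.65, 9.56, 9.55 and 9.51 log2 CPM in Nuc and 8.68, 9.70, 8.67 and 8.65 in WT cells in 1 mM glucose. WT library 2 alone overlapped the Nuc libraries, and the difference between media was 0.84 ± 0.21 with it and 1.10 without it. Atf4 (0.07 ± 0.13), Xbp1 (0.26 ± 0.11) and Atf6 (0.30 ± 0.13), the transcription factors of the 3 branches, were not called for the difference; their transcript level does not show their activity, which is set largely after transcription.

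Glycan assembly, which uses sugars made from glucose, followed in part. Of 24 genes of N-glycan assembly and transfer 7 were called higher and 0 lower, against 4.65% and 5.62% of all genes. Their median was 0.20, and 4 were called without Nuc library 1 of 1 mM glucose or with the Nuc and WT libraries alone in the fit. Dpagt1, which starts the lipid-linked glycan, had 6.18, 6.14, 6.11 and 5.94 log2 CPM in Nuc and 5.22, 5.55, 5.37 and 5.21 in WT cells in 1 mM glucose, without overlap. In 10 mM glucose its Nuc levels of 5.17, 5.18, 5.44 and 5.45 overlapped the WT levels of 5.14, 5.09, 5.17 and 5.29, and the difference was 0.61 ± 0.12 (adjusted p = 0.00082). Stt3b, a catalytic subunit of the enzyme that attaches glycans to proteins, differed by 0.40 ± 0.07. Gfpt1, the rate-limiting enzyme of hexosamine synthesis, was the 1 gene called of 10 in that pathway; 6 were called higher and 1 lower with library weights, and 3 of 9 higher with the trend on transcript length removed. Nuc exceeded WT cells in Gfpt1 by 1.10 in 1 mM and by 0.47 in 10 mM glucose on the log2 scale, a difference of 0.63 ± 0.14. Amino acid supply genes linked to ATF4 had 5 of 18 called higher and 0 lower, against 4.65% and 5.62% of all genes. The count was 10 with quantile normalization of each medium, 9 with library weights or with the length trend removed, and 3 with the Nuc and WT libraries alone in the fit. Pycr1 (0.61 ± 0.13) and Aldh18a1 (0.38 ± 0.08), enzymes of proline synthesis, were among them, and neither passed the test in 10 mM glucose.

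Enzymes of sterol synthesis, a pathway fed by acetyl-CoA, were higher in Nuc than in WT cells for 12 of 20 genes in 1 mM and for 9 in 10 mM glucose, and lower for 2 in 1 mM and 3 in 10 mM glucose; among all genes 19.7% were higher in 1 mM and 15.0% in 10 mM glucose. Of the 20, 7 were called higher for the difference and 1 lower, against 4.65% and 5.62% of all genes, with a median of 0.28. With library weights 11 were called higher. Fdps, which makes farnesyl diphosphate, measured 7.38, 7.47, 7.35 and 7.39 log2 CPM in Nuc and 6.43, 6.99, 6.18 and 6.43 in WT cells in 1 mM glucose. The 10 mM levels were 7.02, 6.89, 7.07 and 7.53 in Nuc and 7.11, 7.22, 7.03 and 7.21 in WT cells. Only the 1 mM groups were apart, and the difference was 0.90 ± 0.17 (adjusted p = 0.000884). Lss, which closes the sterol rings, differed by 1.09 ± 0.24, with a log2 fold change of 1.21 in 1 mM and of 0.13 in 10 mM glucose. Acss2, which makes acetyl-CoA out of acetate, was higher in Nuc cells only in 1 mM glucose, with 3.15, 3.51, 3.14 and 3.27 log2 CPM in Nuc and 2.58, 2.44, 2.46 and 2.87 in WT cells. Its difference was 0.76 ± 0.20 (adjusted p = 0.0142), and it was the 1 gene called of 8 listed for acetyl-CoA supply, a list that leaves out Acly.

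**Figure D3:**
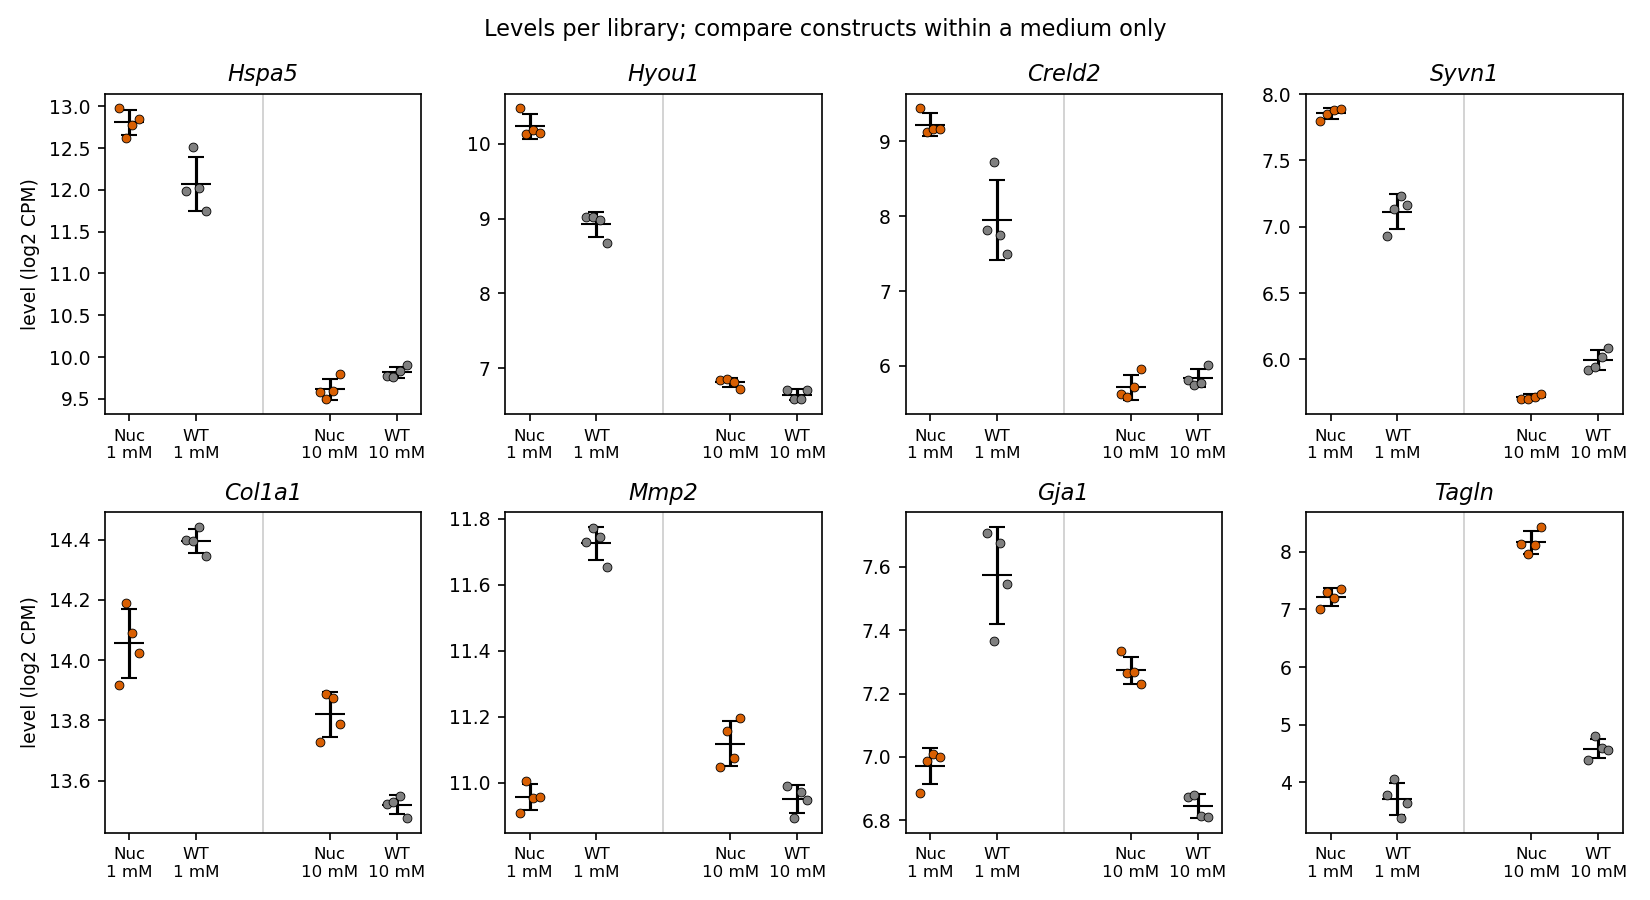
Levels of 8 genes in log2 CPM are drawn per library (points) with the mean and SD (bars) for Nuc and WT cells in 1 mM and in 10 mM glucose; levels are comparable between constructs within a medium and not across the vertical line. Nuc lies above WT for the ER genes Hspa5, Hyou1, Creld2 and Syvn1 in 1 mM glucose, Nuc and WT change places between media for Col1a1, Mmp2 and Gja1, and Tagln is higher in Nuc in both media.

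Collagens had the highest share of calls in the other direction. Of 18 measured collagen chains 10 were called lower for the difference and 0 higher, against 5.62% lower among all genes, and the median was -0.35. In 1 mM glucose 4 were higher and 8 lower in Nuc than in WT cells, against 19.7% and 19.4% of all genes. In 10 mM glucose 9 were higher and 1 lower, against 15.0% and 13.8%. Col1a1, the main chain of type I collagen, measured 13.92, 14.19, 14.09 and 14.03 log2 CPM in Nuc and 14.40, 14.39, 14.44 and 14.34 in WT cells in 1 mM glucose. The order was reversed with 10 mM glucose, where Nuc libraries held 13.73, 13.89, 13.87 and 13.79 and WT libraries 13.52, 13.53, 13.55 and 13.48 log2 CPM. Neither medium showed overlap, and the difference was -0.64 ± 0.10 (adjusted p = 6.797e-05). Col4a2 of basement membranes also differed in sign, with log2 fold changes of -0.35 in 1 mM and 0.16 in 10 mM glucose. Col3a1 (-0.50 ± 0.10) and Col5a1 (-0.39 ± 0.07), chains of fibrils, were lower in Nuc cells in 1 mM glucose and not called in 10 mM glucose. These counts depend on the scaling of libraries: with quantile normalization of each medium, 4 of 18 collagens were called lower, their median was -0.15, and Col1a1 had a difference of -0.14 (adjusted p = 0.514). Summed over 11 fibroblast markers, 3 of them collagens, the level ran between 54280 and 59150 CPM in Nuc and between 58960 and 67830 CPM in WT cells in 1 mM glucose, and between 49930 and 53230 CPM in Nuc and between 44870 and 46300 CPM in WT cells in 10 mM glucose. The part of this summed level in the collagen result was not tested, and in bulk RNA fewer cells of a type and less RNA per cell cannot be told apart.

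Enzymes that mature and cut the matrix included genes with larger differences. Of 16 collagen processing and crosslinking genes 5 were called lower and 1 higher, against 5.62% and 4.65% of all genes. Without Nuc library 1 of 1 mM glucose 3 were called lower, and also 3 without WT library 2 of 10 mM glucose. Bmp1, which removes the C-terminal propeptide of collagens, was lower in Nuc than in WT cells by 0.70 in 1 mM glucose, with a log2 fold change of -0.12 in 10 mM glucose and a difference of -0.59 ± 0.08. Adamts2, which removes the N-terminal propeptide, was instead higher in Nuc cells in 10 mM glucose (0.63) with a log2 fold change of -0.02 in 1 mM glucose, and differed by -0.65 ± 0.10. Of 16 matrix proteases and inhibitors 5 were called lower and 3 higher, against 5.62% and 4.65% of all genes. Mmp2, gelatinase A, measured 10.91, 11.01, 10.95 and 10.96 log2 CPM in Nuc and 11.73, 11.77, 11.75 and 11.65 in WT cells in 1 mM glucose. It measured 11.05, 11.16, 11.08 and 11.19 in Nuc and 10.99, 10.89, 10.97 and 10.95 in WT cells in 10 mM glucose. The groups were apart in both media and in opposite order, and the difference was -0.94 ± 0.08 (adjusted p = 3.339e-09). Mmp14, a membrane protease that activates Mmp2, and Timp2, the inhibitor that takes part in that activation, had the same form, with differences of -0.63 ± 0.08 and -0.51 ± 0.09. Mmp11, stromelysin-3 in older nomenclature, had log2 fold changes of -0.21 in 1 mM and 0.54 in 10 mM glucose.

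**Figure D4:**
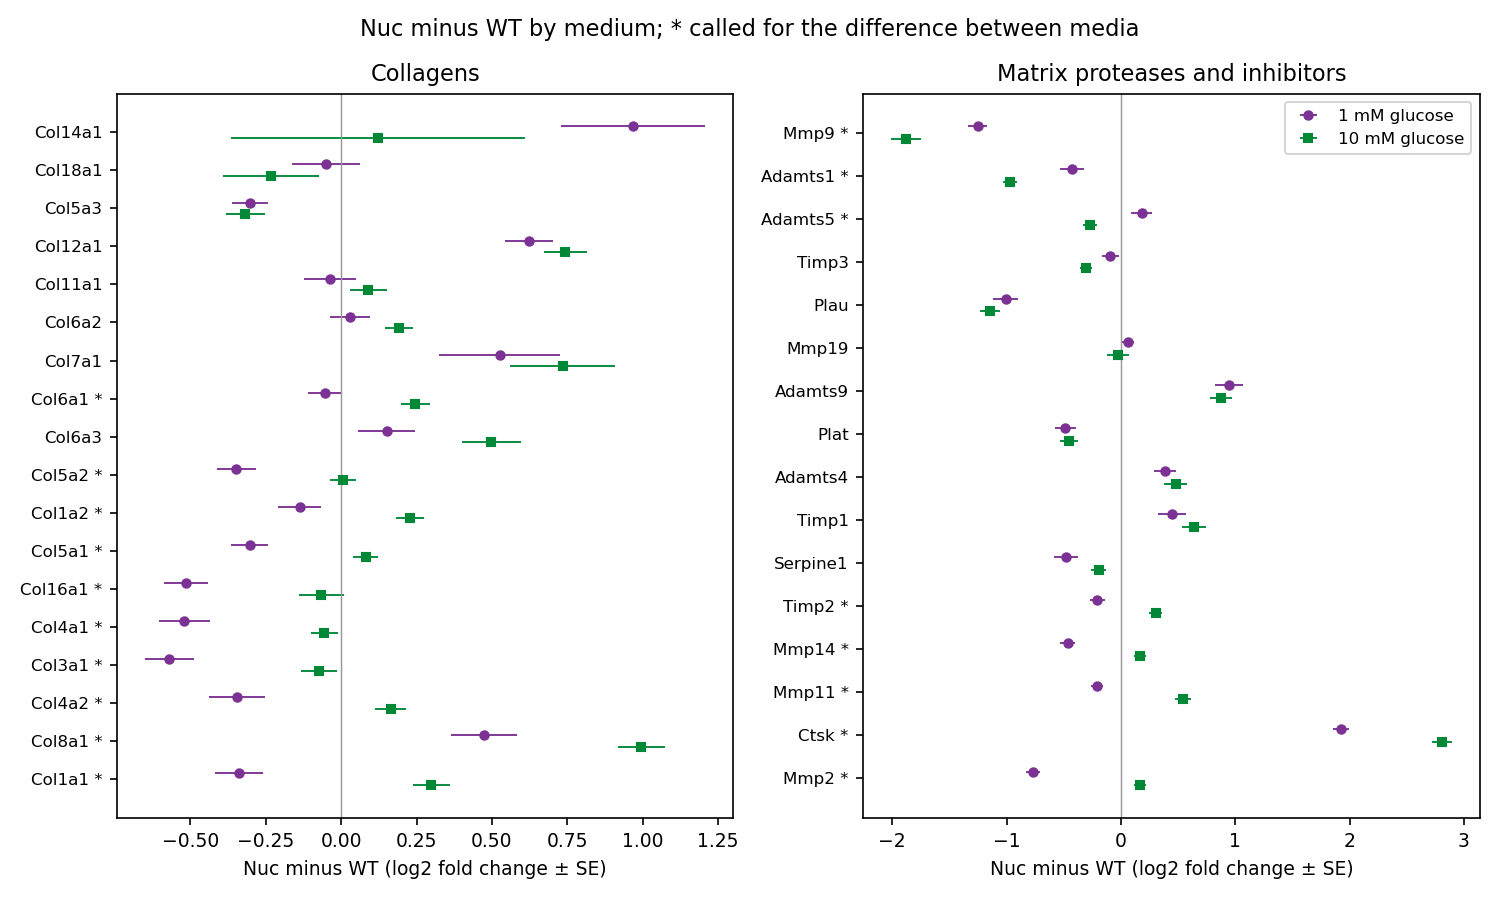
Log2 fold changes of Nuc over WT with their standard errors are drawn for the measured collagens (left) and matrix proteases and inhibitors (right), in 1 mM glucose (circles) and in 10 mM glucose (squares); an asterisk marks a gene called for the difference. For the 10 called collagens the 1 mM value lies left of the 10 mM value, and Mmp2 and Mmp14 fall on both sides of 0.

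Other matrix genes went both ways. Of 25 genes for elastic fibres, proteoglycans and other matrix 7 were called lower and 3 higher, against 5.62% and 4.65% of all genes. Thbs2, a matricellular protein that restrains vessel growth, had 8.44, 8.60, 8.54 and 8.62 log2 CPM in Nuc and 9.02, 8.62, 9.0 and 8.94 in WT cells in 1 mM glucose, and 9.15, 9.06, 9.07 and 8.91 in Nuc and 8.51, 8.46, 8.63 and 8.52 in WT cells in 10 mM glucose. Nuc lay below WT in 1 mM glucose, where WT library 2 was next to the Nuc range, and above WT in 10 mM glucose, and the difference was -0.86 ± 0.10 (adjusted p = 6.305e-07). Postn, periostin, was lower in Nuc cells only in 10 mM glucose (-0.54) and differed by 0.67 ± 0.09. Fbn2, fibrillin-2, was lower in Nuc cells in both media, with -1.71, -1.56, -0.83 and -2.83 log2 CPM in Nuc and 6.61, 5.72, 6.62 and 6.75 in WT cells in 1 mM glucose and 3.25, 2.50, 1.06 and 2.25 in Nuc and 5.94, 5.94, 6.03 and 5.69 in WT cells in 10 mM glucose. Its difference was large and wide, -4.52 ± 1.04 (adjusted p = 0.00458).

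Among contractile genes tied to serum response factor 3 of 17 were called lower and 0 higher, against 5.62% and 4.65% of all genes. Myh10, a non-muscle myosin heavy chain, measured 10.05, 10.26, 10.23 and 10.19 log2 CPM in Nuc and 10.88, 10.92, 10.81 and 10.85 in WT cells in 1 mM glucose, whereas the groups overlapped in 10 mM glucose, and its difference was -0.66 ± 0.10. Myh9, the related heavy chain, differed by -0.45 ± 0.12 and was not called under quantile normalization (-0.31, adjusted p = 0.265). Of 17 TGF-beta ligands and targets 3 were called lower and 0 higher, against the same shares of all genes. The count was 6 lower without WT library 2 of 1 mM glucose and 8 with library weights. Id2, an inhibitor of basic helix-loop-helix factors, was lower in Nuc cells only in 1 mM glucose and differed by -0.68 ± 0.16. Bambi, a decoy receptor of this pathway, was higher in Nuc cells in both media but less so in 1 mM glucose, with log2 fold changes of 0.49 in 1 mM and 1.66 in 10 mM glucose. Tagln, a smooth muscle actin-binding protein of the contractile list, was far higher in Nuc cells in both media and was not called for the difference. It stood at 7.0, 7.30, 7.20 and 7.35 log2 CPM in Nuc and 3.78, 4.06, 3.38 and 3.64 in WT cells in 1 mM glucose, and at 8.14, 7.96, 8.11 and 8.44 in Nuc and 4.39, 4.80, 4.59 and 4.56 in WT cells in 10 mM glucose. The fold changes were 3.50 and 3.57 on the log2 scale, and the difference was -0.08 ± 0.21 (adjusted p = 0.866).

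Of 20 lysosomal genes 2 were higher and 5 lower in Nuc than in WT cells in 1 mM glucose, against 19.7% higher and 19.4% lower among all genes, and 6 were higher and 1 lower in 10 mM glucose, against 15.0% and 13.8%. For the difference 6 were called lower and 1 higher, against 5.62% and 4.65% of all genes, and 4 were called lower without WT library 2 of 1 mM glucose. Hexa, a subunit of beta-hexosaminidase, measured 9.17, 9.19, 9.21 and 9.19 log2 CPM in Nuc and 9.16, 9.44, 9.16 and 9.08 in WT cells in 1 mM glucose. The 10 mM levels of 8.86, 9.02, 9.02 and 9.28 in Nuc were all above those of 8.35, 8.32, 8.27 and 8.44 in WT cells, and the difference was -0.72 ± 0.11 (adjusted p = 6.155e-05). The proteases Ctsl and Ctsd were also called lower, at -0.51 and -0.33. Ctsk, a collagen-degrading cathepsin counted with the matrix proteases, was higher in Nuc cells by 1.93 in 1 mM and by 2.81 in 10 mM glucose, a difference of -0.88 ± 0.11. Lipa, which releases cholesterol and fatty acids in lysosomes, was the lysosomal gene called higher, at 0.46 ± 0.08.

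Of 20 glycolysis genes 11 were lower and 3 higher in Nuc than in WT cells in 1 mM glucose, against 19.4% lower among all genes, and 7 were lower and 4 higher in 10 mM glucose, against 13.8% lower. For the difference 7 were called lower and 1 higher, against 5.62% and 4.65% of all genes, with a median of -0.19. Without Nuc library 1 of 1 mM glucose 3 were called lower, and 4 without Nuc library 4 of 10 mM glucose. With the Nuc and WT libraries alone in the fit 3 were called lower. Pfkm, a phosphofructokinase, measured 5.63, 5.49, 5.57 and 5.62 log2 CPM in Nuc and 6.32, 6.41, 6.46 and 6.26 in WT cells in 1 mM glucose, and 6.37, 6.22, 6.26 and 6.40 in Nuc and 6.59, 6.63, 6.74 and 6.65 in WT cells in 10 mM glucose. Nuc was below WT without overlap in both media, by more in 1 mM glucose, and the difference was -0.44 ± 0.08 (adjusted p = 0.000296). The called members also included Gpi1 (-0.58), which follows hexokinase in the pathway, and Pkm (-0.32), a pyruvate kinase. Slc16a1, a lactate and pyruvate transporter on the same list, was the member called higher (0.70 ± 0.11) and was lower in Nuc cells only in 10 mM glucose (-0.62).

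Txnip, an inhibitor of glucose uptake that is transcribed when glucose metabolites are plentiful, was lower in Nuc than in WT cells in both media. Its levels were 0.08, 0.20, 0.26 and 0.49 log2 CPM in Nuc and 2.12, 1.55, 2.44 and 1.57 in WT cells in 1 mM glucose, and 6.90, 6.74, 6.81 and 6.99 in Nuc and 7.38, 7.32, 7.37 and 7.29 in WT cells in 10 mM glucose. The groups were apart in both media, and the difference was -1.19 ± 0.26 (adjusted p = 0.00276). All its 1 mM levels lay below the 5.04 log2 CPM of the median shared gene in that medium. Txnip was the 1 gene called lower of 5 measured on a list of glucose-sensed genes, and 0 were called higher. The shares of all genes were 5.62% and 4.65%. That list had a median difference of 0.07, with 3 of 5 above 0, so the other genes did not follow Txnip as a group. G6pdx, which opens the pentose phosphate pathway, was lower in Nuc cells only in 10 mM glucose (-0.71) and differed by 0.53 ± 0.14, the 1 gene called of 7 in that pathway. Bnip3, a mitophagy receptor on the hypoxia list, differed by -0.51 ± 0.12.

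Of 23 replication genes 3 were called lower and 2 higher, against 5.62% and 4.65% of all genes. The helicase subunits Mcm4 and Mcm6 were lower in Nuc cells in both media and by more in 1 mM glucose, with differences of -0.39 ± 0.08 and -0.50 ± 0.09. Mcm6 measured 5.76, 5.94, 5.95 and 6.02 log2 CPM in Nuc and 6.70, 6.81, 6.59 and 6.71 in WT cells in 1 mM glucose, against 7.06, 6.84, 6.95 and 7.06 in Nuc and 7.24, 7.27, 7.26 and 7.27 in WT cells in 10 mM glucose. Cdkn1a, the cyclin-dependent kinase inhibitor p21, had 7.40, 7.50, 7.49 and 7.54 log2 CPM in Nuc and 8.0, 8.09, 8.03 and 8.03 in WT cells in 1 mM glucose, overlapped in 10 mM glucose, and differed by -0.48 ± 0.07 (adjusted p = 7.445e-05). Of 25 enzymes that use acetyl-CoA on chromatin or reverse its use 2 were called lower (8%) and 1 higher (4%). These shares are near the 5.62% and 4.65% of all genes, and 0 were called higher in some fits that left out a library. Hdac5, a class II histone deacetylase, was lower in Nuc cells in 1 mM glucose (-0.59) and not called in 10 mM glucose (0.11). Hdac7 of the same class was called lower for the difference as well, at -0.38 ± 0.10. Among 22 genes of G2 and mitosis 3 were called higher (13.6%) and 0 lower, against 4.65% and 5.62% of all genes. Their median was 0.21, with 21 of 22 differences above 0. In 1 mM glucose 8 of them were higher and 0 lower in Nuc than in WT cells, against 19.7% and 19.4% of all genes. In 10 mM glucose 3 were higher and 0 lower, against 15.0% and 13.8%. The count for the difference lay between 1 and 6 when single libraries were left out; without Nuc library 1 of 1 mM glucose 6 were called. Tpx2, a spindle assembly factor, measured 6.57, 6.96, 6.85 and 6.90 log2 CPM in Nuc and 6.40, 6.33, 6.43 and 6.40 in WT cells in 1 mM glucose, whereas the 10 mM groups overlapped, and differed by 0.43 ± 0.10. Cenpe, a kinetochore motor, differed by 0.45 ± 0.15, but its call was lost in 12 of 16 fits that left out a library, WT library 2 of 1 mM glucose among them (0.42, adjusted p = 0.0685). Mdm2, the ubiquitin ligase for p53 and itself a p53 target, differed by 0.42 ± 0.10, opposite in direction to Cdkn1a, another p53 target.

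Fos, Dusp6 and Cxcl1 were lower in Nuc than in WT cells with 10 mM glucose and not called with 1 mM glucose. Their lists went both ways. With 10 mM glucose 11 of 25 immediate early and ERK feedback genes were lower in Nuc cells, while 7 were higher. Of 12 secreted inflammatory factors 5 were lower and 4 higher in that medium. Among all genes 13.8% were lower there and 15.0% higher. With 1 mM glucose the immediate early list held 6 lower and 4 higher genes, and the secreted list 2 lower and 4 higher. The shares of all genes in 1 mM glucose were 19.4% lower and 19.7% higher. The test of the difference between media called 3 of the 25 immediate early genes higher (12%) and 2 lower (8%), and 1 secreted factor lower (8.33%). It called 4.65% of all genes higher and 5.62% lower, so both lower shares are near the background. Without Nuc library 1 of 1 mM glucose 0 immediate early genes were called lower. Without WT library 4 of 1 mM glucose 5 of them were called higher. Fos, a subunit of AP-1, measured 2.12, 2.25, 2.57 and 3.08 log2 CPM in Nuc and 1.39, 2.44, 3.22 and 4.07 in WT cells in 1 mM glucose. It measured 1.87, 1.87, 1.68 and 2.32 in Nuc and 4.64, 4.97, 4.63 and 4.54 in WT cells in 10 mM glucose. Only the 10 mM groups were apart, the WT libraries of 1 mM glucose covered more than the whole Nuc range, and the difference was 2.48 ± 0.66 (adjusted p = 0.0138). Dusp6, a phosphatase that switches ERK off, had the same form (1.54 ± 0.36), with log2 fold changes of 0.47 in 1 mM and -1.07 in 10 mM glucose. So did Cxcl1, a neutrophil chemokine and 1 of 3 of 12 secreted inflammatory factors called higher, with log2 fold changes of -0.23 in 1 mM and -2.20 in 10 mM glucose and a difference of 1.97 ± 0.41. Il1rn, the interleukin-1 receptor antagonist on that list, was lower in Nuc cells in both media, by 0.42 in 1 mM and by 1.09 in 10 mM glucose on the log2 scale, a difference of 0.67 ± 0.11.

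C3, the central complement component, was lower in Nuc cells in both media. Its levels were 3.16, 3.44, 3.59 and 3.07 log2 CPM in Nuc and 5.87, 5.65, 5.98 and 5.99 in WT cells in 1 mM glucose, and 3.19, 1.58, 0.55 and 1.18 in Nuc and 6.36, 6.01, 6.09 and 6.0 in WT cells in 10 mM glucose. Nuc library 1 of 10 mM glucose was the highest of a wide Nuc range, and the difference was 1.93 ± 0.41 (adjusted p = 0.00245). Of 15 interferon-stimulated genes 4 were called higher and 0 lower, against 4.65% and 5.62% of all genes, with a median of 0.47. Ifit1, which binds foreign RNA, measured 4.56, 4.31, 4.22 and 4.53 log2 CPM in Nuc and 3.55, 4.03, 3.70 and 3.40 in WT cells in 1 mM glucose, but averaged 0.06 ± 0.35 in Nuc and 1.20 ± 0.41 in WT cells in 10 mM glucose (SD, n = 4 each). Nuc was above WT in low and below WT in high glucose, and the difference was 1.87 ± 0.30 (adjusted p = 0.000108). Stat2, which carries the interferon signal, differed by 0.76 ± 0.12 and passed the test only in 1 mM glucose.

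Outside these lists, genes at or above the median level were led in the lower direction by Slc40a1, ferroportin, the iron exporter. It measured 5.75, 5.94, 5.67 and 5.64 log2 CPM in Nuc and 6.52, 6.31, 6.43 and 6.47 in WT cells in 1 mM glucose, and 6.50, 6.57, 6.13 and 5.78 in Nuc and 5.40, 5.66, 5.70 and 5.13 in WT cells in 10 mM glucose. The groups were apart in both media in opposite order, and the difference was -1.46 ± 0.20 (adjusted p = 1.25e-05). Gja1, the gap junction protein connexin 43, did the same, with 6.89, 6.99, 7.01 and 7.0 log2 CPM in Nuc and 7.71, 7.37, 7.67 and 7.55 in WT cells in 1 mM glucose and 7.33, 7.26, 7.27 and 7.23 in Nuc and 6.87, 6.88, 6.81 and 6.81 in WT cells in 10 mM glucose. Its difference was -1.03 ± 0.09 (adjusted p = 6.079e-09). Nrep, Pmepa1, an inhibitor of TGF-beta signalling, and Sdc3, a heparan sulfate proteoglycan, also had opposite called fold changes, with differences of -1.07 ± 0.11, -1.03 ± 0.19 and -0.91 ± 0.13. Arl4c, a small GTPase of the ARF family, was higher in Nuc cells by 0.21 in 1 mM and by 1.33 in 10 mM glucose, a difference of -1.12 ± 0.09 (adjusted p = 2.071e-09). Tmem119, a membrane protein of bone-forming cells and microglia, was higher in Nuc cells only in 10 mM glucose (0.82) and differed by -1.09 ± 0.15.

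In the higher direction, Ptx3, a secreted pentraxin of innate immunity, measured 7.71, 7.70, 7.73 and 7.80 log2 CPM in Nuc and 7.34, 7.88, 7.46 and 7.38 in WT cells in 1 mM glucose, and 6.14, 6.07, 6.21 and 6.33 in Nuc and 7.27, 7.29, 7.07 and 7.41 in WT cells in 10 mM glucose. Nuc was below WT without overlap only in 10 mM glucose, and the difference was 1.29 ± 0.13 (adjusted p = 5.973e-08). Hoxb9, a homeobox transcription factor, was higher in Nuc cells by 0.48 in 1 mM glucose, had a log2 fold change of -0.55 in 10 mM glucose, and differed by 1.03 ± 0.10. Calcrl, the receptor partner for adrenomedullin, differed by 1.12 ± 0.20 and passed the test only in 1 mM glucose. Slc39a10, a zinc importer, was higher in Nuc cells in both media, by 1.86 in 1 mM and by 0.75 in 10 mM glucose, a difference of 1.12 ± 0.24. Cacna1b, a neuronal calcium channel subunit, differed by 1.00 ± 0.30, and its Nuc and WT libraries overlapped in each medium. Its call was lost in 7 of 16 fits that left out a library, WT library 2 of 1 mM glucose among them (0.82, adjusted p = 0.0699). Mtrnr2l7, a humanin-like gene whose sequence resembles mitochondrial ribosomal RNA so that its reads may be shared with such copies, was lower in Nuc cells by 1.63 in 1 mM and by 0.56 in 10 mM glucose, a difference of -1.07 ± 0.15.

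Besides Tagln, large fold changes that were called in both media and not for the difference were those of Clu, P2rx3 and Rpl34-ps1. Clu, the secreted chaperone clusterin, was lower in Nuc cells by 2.15 in 1 mM and by 2.58 in 10 mM glucose, and the difference was 0.43 ± 0.16 (adjusted p = 0.076). It passed the test without WT library 2 of 1 mM glucose (0.50, adjusted p = 0.0307). P2rx3, a purinergic ion channel, was higher in Nuc cells by 1.30 in 1 mM and by 1.47 in 10 mM glucose, with a difference of -0.17 ± 0.15 (adjusted p = 0.561). It passed the test with library weights (-0.32, adjusted p = 0.0306). Rpl34-ps1, a ribosomal protein pseudogene whose reads may be shared with its parent gene, was lower in Nuc cells in both media, and its difference was -0.44 ± 0.17 (adjusted p = 0.114).

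Other metabolic lists held few called genes, and most of these counts changed when a single library was left out. Among all genes 4.65% were called higher and 5.62% lower. In lipid metabolism, 2 of 17 fatty acid synthesis genes were called higher, Fads1, a desaturase (0.21 ± 0.06; call lost in 3 of 16 fits that left out a library), and Acss2, which is also on that list. Of 16 fatty acid oxidation genes 2 were called lower, the acyl-CoA dehydrogenases Acadl (-0.38 ± 0.12) and Acadvl (-0.37 ± 0.11), and 0 were called in 6 of the 16 fits that left out a library; Acadl lost its call in 12 and Acadvl in 9 of them. Of 8 LXR targets and efflux genes 2 were called lower, Scarb1, a receptor for high-density lipoprotein (-0.39 ± 0.11), and Mylip, which degrades the LDL receptor (-0.43 ± 0.14). Mylip lost its call in 10 and Scarb1 in 4 of the 16 fits. Stard4, a sterol carrier, was called higher (0.49 ± 0.13).

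Of the TCA cycle and pyruvate list, Pdk3, which restrains pyruvate dehydrogenase, was called higher (0.47 ± 0.12). The counts that follow stand against 4.65% higher and 5.62% lower among all genes. Of 12 NRF2 targets 3 were called higher, among them Gsr, glutathione reductase (0.47 ± 0.12), and Gclc, which starts glutathione synthesis (0.30 ± 0.09); 1 was called when Nuc library 1 or 3 of 1 mM glucose, WT library 2 of 1 mM glucose, or the Nuc or WT library 4 of 10 mM glucose was left out. Gclc lost its call in 8 of 16 such fits, at 0.26 (adjusted p = 0.0629) without WT library 2 of 1 mM glucose. The tRNA synthetases Nars1 (0.32 ± 0.07) and Wars1 (0.31 ± 0.07) were the 2 called higher of 12. Egln1, an oxygen-sensing prolyl hydroxylase, was called lower with Bnip3 (-0.30 ± 0.08), 2 of 15 hypoxia genes, and was not called without WT library 2 of 10 mM glucose (-0.25, adjusted p = 0.0579). Amotl2, a YAP target and partner, was the 1 gene called of 12 on its list (0.48 ± 0.10).

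**Figure D5:**
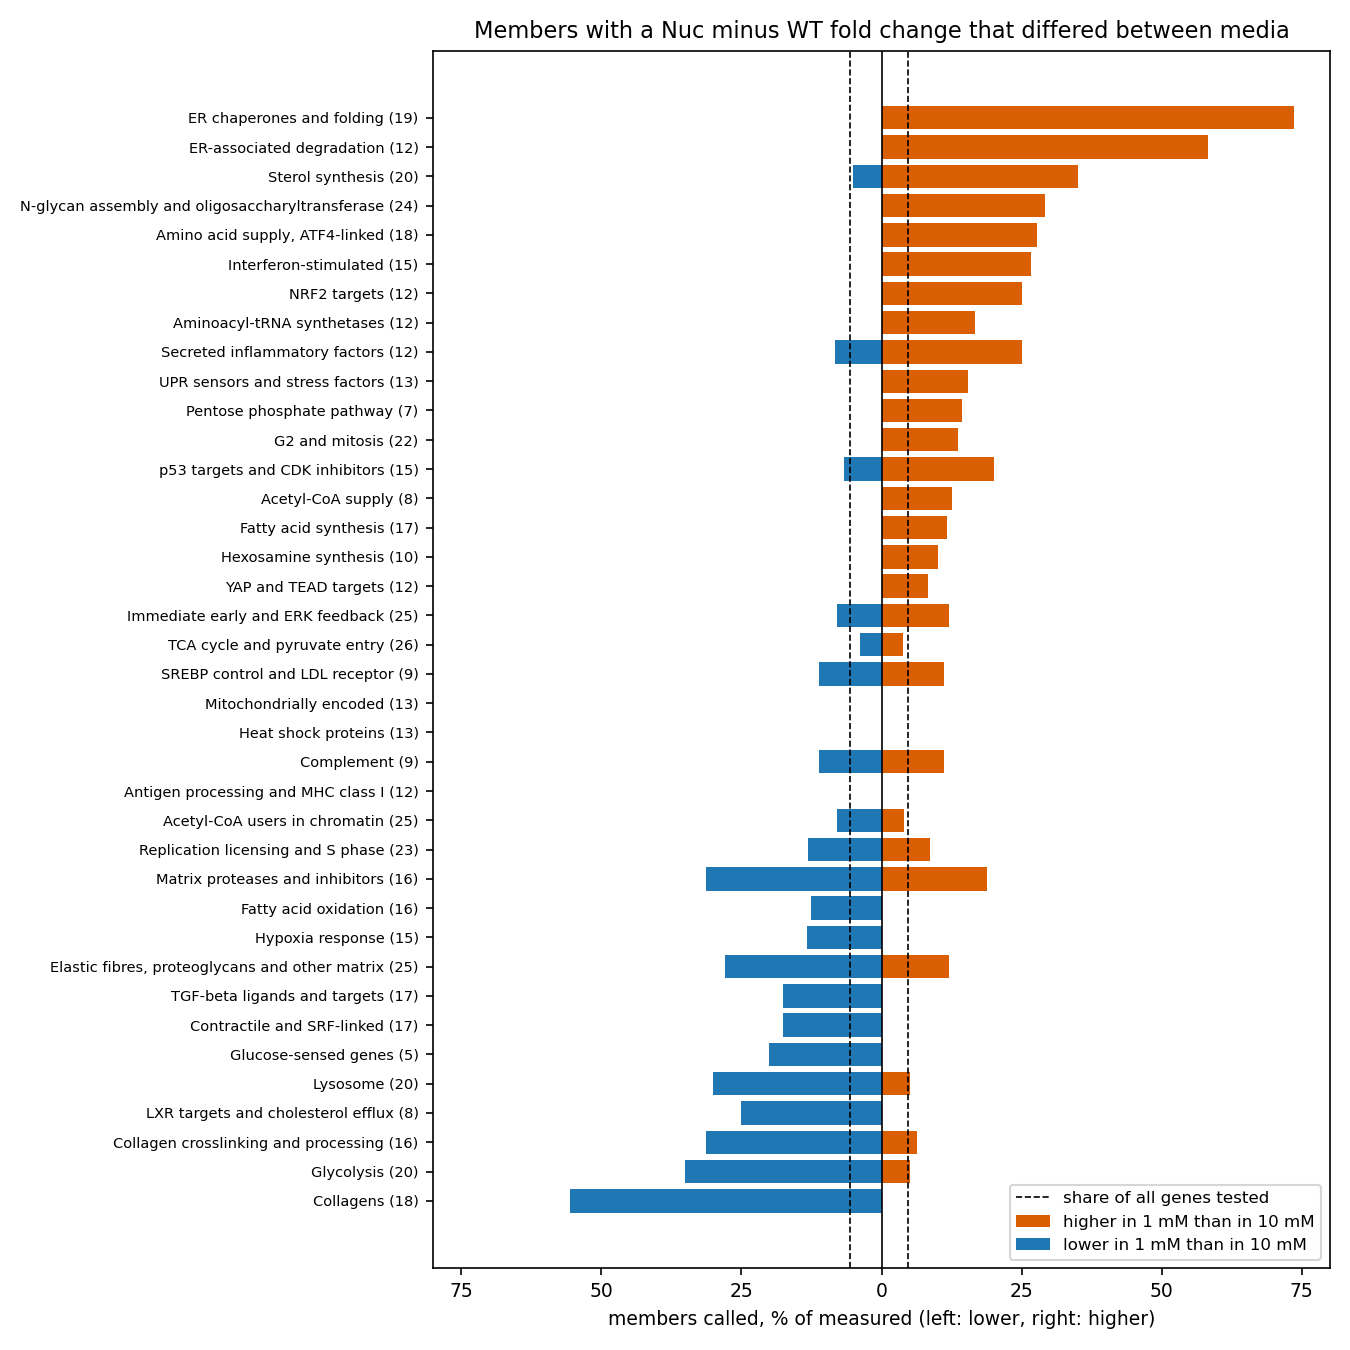
For each of 38 gene lists, with the number of measured genes in brackets, bars give the percentage of genes called higher (right) and lower (left) for the difference between media. Dashed lines mark 4.65% higher and 5.62% lower among all genes; ER folding (73.7% higher) and collagens (55.6% lower) reach farthest.

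Heat shock proteins (0 of 13), antigen processing and MHC class I genes (0 of 12) and mitochondrially encoded genes (0 of 13) had no gene called for the difference by limma. At an unadjusted p under 0.05 these lists held 1, 3 and 0 genes, in the same order, and their medians were -0.10, -0.06 and 0.05. With quantile normalization of each medium 3 of the 13 mitochondrially encoded genes were called higher, with a median of 0.26, and with library weights 2 heat shock genes were called higher and 1 lower and 2 antigen processing genes higher. Of 26 genes of the TCA cycle and pyruvate entry 1 was called higher and 1 lower, shares of 3.85% each, which are near the background.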

How the data were processed

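Log2 expression values per gene and library were used as the authors deposited them, with a separately normalized table for each medium. They behave as log2 CPM, since their linear sums lie between 0.933 and 1.10 of the CPM total. Per the submitters' processing notes, kallisto, edgeR, limma and GRCm39 were used, with versions not given in the sources used here. Values did not resolve into whole reads; the depth is unknown and no counting interval is given. Each table had 1 entry without a symbol, which was left out. The Cyto library numbered 3 in 10 mM glucose, called an anomaly in the series' design text, is not analysed here.

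The other 31 libraries entered limma 3.58.1 in R 4.3.3 (trended prior variance, 8 group means, genes of both tables). Its moderated test of the difference between media was two-sided, with Benjamini-Hochberg adjustment over all 11931 genes; all adjusted p-values given are of this kind. Fits within a medium used its whole table. The same script was tested on simulated data. An exact permutation test was run on the summed CPM of mitochondrially encoded transcripts.

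The genes described, the gene lists and the tests were chosen with earlier results of these data known. The rule for genes took Acly, the 10 highest and 10 lowest differences among called genes at or above the median level in both tables, up to 2 called genes per list by adjusted p, the 4 strongest called in opposite directions in the media and the 4 strongest called alike. The outcome of some other genes is given too, such as Hspa5, Sdf2l1, Calr, Canx, Fbn2, Mmp14 and Col3a1; these were chosen after their values were seen.

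Promoter windows (11838 for 9205 genes, of which 1934 had over 1 window) came from RefSeq. Alternatives changed the prior, the scaling, the offset, a minimum level, library weights, a replicate block, the libraries in the fit and a trend on transcript length, and left out single libraries. The deviations of same-numbered Nuc and WT libraries from their group means correlated at -0.054 to 0.090 in 1 mM glucose and at -0.015 to 0.281 in 10 mM glucose, highest for the libraries numbered 4, so replicate numbers were not read as a pairing. Results of some genes are not reported here.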

Additional observations from a re-analysis of the deposited data

Results flagged for a closer look

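The test of the difference between media, which asks directly whether the Nuc over WT fold change differed between 1 mM and 10 mM glucose, was passed by 1225 genes. The genes described that passed it in the higher direction were, among those of the ER and its glycans, Creld2 (1.40), Dnajb9 (1.22), Hyou1 (1.15), Syvn1 (1.02), Hsp90b1 (0.98), Ddit3 (0.84), Derl2 (0.66), Gfpt1 (0.63), Dpagt1 (0.61), Eif2ak3 (0.47) and Stt3b (0.40). Among those of metabolism and transport and the tRNA synthetases they were Slc39a10 (1.12), Lss (1.09), Fdps (0.90), Acss2 (0.76), Slc16a1 (0.70), Pycr1 (0.61), G6pdx (0.53), Stard4 (0.49), Gsr (0.47), Pdk3 (0.47), Lipa (0.46), Aldh18a1 (0.38), Nars1 (0.32), Wars1 (0.31), Gclc (0.30) and Fads1 (0.21). In signalling, immunity and matrix they were Fos (2.48), Cxcl1 (1.97), C3 (1.93), Ifit1 (1.87), Dusp6 (1.54), Ptx3 (1.29), Calcrl (1.12), Hoxb9 (1.03), Cacna1b (1.00), Stat2 (0.76), Il1rn (0.67), Postn (0.67), Amotl2 (0.48), Cenpe (0.45), Tpx2 (0.43) and Mdm2 (0.42).

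In the lower direction the matrix genes described were Mmp2 (-0.94), Ctsk (-0.88), Thbs2 (-0.86), Mmp11 (-0.75), Adamts2 (-0.65), Col1a1 (-0.64), Bmp1 (-0.59) and Col5a1 (-0.39). Other genes described in that direction were Slc40a1 (-1.46), Txnip (-1.19), Arl4c (-1.12), Bambi (-1.17), Tmem119 (-1.09), Nrep (-1.07), Mtrnr2l7 (-1.07), Gja1 (-1.03), Pmepa1 (-1.03), Sdc3 (-0.91), Hexa (-0.72), Hdac5 (-0.69), Id2 (-0.68), Myh10 (-0.66), Bnip3 (-0.51), Acly (-0.50), Mcm6 (-0.50), Cdkn1a (-0.48), Myh9 (-0.45), Pfkm (-0.44), Mylip (-0.43), Mcm4 (-0.39), Scarb1 (-0.39), Acadl (-0.38), Hdac7 (-0.38), Acadvl (-0.37) and Egln1 (-0.30).

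Single libraries lay far from the other 3 of their group by Dixon's criterion in 27 of 328 groups of the genes described; chance gives about 1 in 20 groups. In 1 mM glucose, Nuc library 1 was high for Creld2 (9.44 log2 CPM), Hyou1 (10.48) and Lipa (8.79) and low for Pmepa1 (6.21). WT library 2 of 1 mM glucose was high for Ddit3 (9.70), Derl2 (6.68), Hoxb9 (6.45), Mmp11 (7.61), Mtrnr2l7 (7.37), Nars1 (9.29) and Wars1 (8.13) and low for Calcrl (5.32), Fads1 (8.15), Pmepa1 (6.66) and Sdc3 (6.97). WT library 4 of 1 mM glucose was low for Hyou1 (8.67) and high for Lss (5.48), and WT library 1 was high for Il1rn (8.86). In 10 mM glucose, Nuc library 2 was low for Dnajb9 (4.41) and high for Stt3b (7.83), and Nuc library 4 was high for Id2 (5.42). Among the WT libraries of 10 mM glucose, library 2 was high for Acss2 (4.07) and low for Gsr (5.33) and Hdac7 (7.11), library 3 high for G6pdx (6.66) and Scarb1 (4.62), and library 4 high for Hsp90b1 (10.36).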

How the results depend on the processing

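Counts of genes called higher and lower stayed within 1.5 times those reported except with library weights (arrayWeights), which gave 1089 higher and 1156 lower (the cause was not tested). The fit of the Nuc and WT libraries alone, with fewer libraries, gave 372 higher and 500 lower, and 829 of the 1225 genes remained called in it. The replicate block, which the labels do not support as a pairing, gave 606 higher and 710 lower. Leaving out 1 library gave 429 to 616 higher and 527 to 754 lower for the difference, 2051 to 2572 higher and 1995 to 2566 lower for Nuc against WT in 1 mM glucose, and 1572 to 2031 higher and 1450 to 1977 lower in 10 mM glucose. Among the gene lists, library weights gave 6 contractile, 5 hypoxia, 4 immediate early and 3 TCA cycle genes called lower, and 4 aminoacyl-tRNA synthetases, 5 other matrix genes and 3 TCA cycle genes called higher. The Nuc and WT libraries alone gave 0 LXR and 0 fatty acid oxidation genes and 3 crosslinking genes called lower, and 1 NRF2 and 1 p53 target called higher. The replicate block gave 5 immediate early genes called higher. Without WT library 2 of 1 mM glucose, or without both libraries numbered 4 in 10 mM glucose, 2 hexosamine genes were called higher. No gene called as reported was called in the opposite direction in any alternative.

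Of 2292 values of the genes named, 2189 kept their direction and side of the threshold, 93 (of 13 genes, among them Acadl, Acadvl, Cacna1b, Cenpe, Col1a1, Egln1, Fads1, Gclc, Myh9, Mylip, Pdk3 and Scarb1) missed the threshold, 6 newly passed it and 4 changed sign. All 4 were of Tagln, whose difference lies near 0: 0.13 with library weights, 0.0223 without both libraries numbered 4 in 10 mM glucose, 0.0364 without WT library 2 of 1 mM glucose and 0.0139 without Nuc library 4 of 10 mM glucose, in a range of -0.1894 to 0.0364 over single libraries left out; the cause was not tested. Without a depth, values near the lowest of a table have an unknown error.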
